A study of Homo sapiens with 6 samples.

Results

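The circadian clock genes described here are 10 human genes: *PER1*, *PER2*, *PER3*, *CRY1*, *CRY2*, *BMAL1* (older symbol *ARNTL*), *NR1D1*, *DBP*, *BHLHE40* and *BHLHE41*. They were picked by name, by matching Ensembl identifiers to gene symbols, and make up 10 of the 40295 genes in the table. RNA was sequenced from HDQ-P1, an established human cancer cell line, in 6 libraries. A group of 3 libraries came from cells kept for 48 h with Y-320 at 1 μM, and the other 3 came from untreated cells. Y-320 is a small molecule that the study examined as an enhancer of readthrough, the insertion of an amino acid at a premature stop codon so that translation continues. In the study it enhanced readthrough by aminoglycosides such as G418 and caused none alone. Cells of the treated libraries had Y-320 alone. The labels mention no solvent for the untreated cells, so the compound and its vehicle cannot be told apart. They give neither the time of day of harvest nor any step that would synchronize the cells. The treated libraries stand for a single time point, and no time is given for the untreated ones. A change in the mean level of a clock mRNA and a change in the phase of a rhythm therefore cannot be told apart. The labels do not say whether the replicates were separate cultures, so the p-values measure the spread between these samples, which may be technical.

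The circadian clock is a feedback loop of transcription. CLOCK or its relative NPAS2 pairs with BMAL1 on E-box DNA and activates the *PER*, *CRY*, *NR1D1*, *DBP* and *BHLHE40/41* genes, and the PER and CRY proteins then hold that activator back. NR1D1 (REV-ERBα) represses *BMAL1* through ROR elements, DBP activates genes through D-boxes that the repressor NFIL3 also binds, and BHLHE40 and BHLHE41 (DEC1 and DEC2) compete for E-boxes. Such loops run in most tissues and in many cultured cell lines, although individual cells drift apart in phase when they are not synchronized.

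In Y-320-treated cells, the mRNAs of the clock genes moved in opposite directions even within a family. *PER1* and *BHLHE40* each reached 2.01 times their untreated level, *NR1D1* reached 1.65 times and *BMAL1* 1.56 times. *PER3* fell to 0.499 times its untreated level, *BHLHE41* to 0.660 times and *DBP* to 0.825 times. Levels here are scaled shares of each library's counts, so a change in the amount of mRNA per cell cannot be read from them. *PER2*, *CRY1* and *CRY2* did not pass the test. All 10 genes had enough reads to be tested, and 4 were higher and 3 lower at a Benjamini-Hochberg adjusted p under 0.05 in edgeR's quasi-likelihood test. Much of the transcriptome differed between the groups, since 51.5% of the 16580 genes tested passed in either direction, 26.2% higher and 25.4% lower. The members' 7 of 10 is read against that share. The members were chosen with earlier results of these data known, which limits this and the next comparisons with all genes. By size of change, 6 of the 10 clock genes passed and also moved by 0.5 or more on the log2 scale, against 15.7% of all genes. A change of at least 1 was reached by 3 of the 10, against 5.02% of all genes. The median absolute log2 fold change was 0.62 over the clock genes and 0.21 over all genes tested, while the signed medians were 0.15 and 0.00097.

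The regions just before the start sites are shown for the members whose windows hold a sequence element that clock proteins are known to bind. Windows from 250 bases before to 50 bases after each start site came from RefSeq (GRCh38.p14), 13 windows for the 10 genes. The letters searched, on both strands, were CACGTG (E-box), TTANGTAA (D-box), TAGGTNA (core of the ROR element) and TGACGTCA (the cyclic AMP response element). Capitals mark the element in each sequence below. Sequences are given 5′ to 3′ on the strand of the gene, and no 2 matches overlapped. The first 3 are E-box matches, in *PER1* (30 bases from chr17:8152559-8152588, minus strand), *BHLHE40* (250 bases, chr3:4979187-4979436, plus strand) and *BHLHE41* (250 bases, chr12:26125038-26125287, minus strand). These E-boxes begin 173, 245 and 48 bases before the start site. The D-box matches follow, in *PER2* (chr2:238288595-238288624, minus strand) and *PER3* (250 bases, chr1:7784041-7784290, plus strand), beginning 3 and 177 bases before the start. The last are ROR element cores, 1 in *CRY2* (chr11:45847399-45847428, plus strand) and a pair in *BMAL1* (chr11:13277773-13277802 and chr11:13277809-13277838, plus strand). The core of *CRY2* begins 65 bases before the start site, and those of *BMAL1* begin 6 bases before and 30 bases after it.
PER1: gcacccaggtcCACGTGcgcccgtgtgtgt
BHLHE40: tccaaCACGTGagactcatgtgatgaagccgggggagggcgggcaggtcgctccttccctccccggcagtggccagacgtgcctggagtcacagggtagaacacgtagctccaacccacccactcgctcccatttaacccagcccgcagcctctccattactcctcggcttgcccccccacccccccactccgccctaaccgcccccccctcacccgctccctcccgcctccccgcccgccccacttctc
BHLHE41: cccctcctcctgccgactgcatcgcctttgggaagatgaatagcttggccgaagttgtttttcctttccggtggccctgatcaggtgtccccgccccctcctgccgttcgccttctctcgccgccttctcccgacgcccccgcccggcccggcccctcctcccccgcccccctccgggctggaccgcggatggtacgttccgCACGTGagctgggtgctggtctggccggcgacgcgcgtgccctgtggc
PER2: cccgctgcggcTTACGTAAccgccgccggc
PER3: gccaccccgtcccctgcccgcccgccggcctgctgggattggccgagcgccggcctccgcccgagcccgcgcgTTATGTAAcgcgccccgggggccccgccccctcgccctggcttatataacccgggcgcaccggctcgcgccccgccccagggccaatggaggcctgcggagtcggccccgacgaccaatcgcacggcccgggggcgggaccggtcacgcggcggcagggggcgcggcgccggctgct
CRY2: ttgcggcgtcaTAGGTCActgggcgggcta
BMAL1, first element: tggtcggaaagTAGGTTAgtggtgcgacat
BMAL1, second element: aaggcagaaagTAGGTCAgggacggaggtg

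An E-box was found in 3 of the 10 genes, a D-box in 2 and a ROR element core in 2. These counts are per gene, over 13 windows, while the shares that follow are per window. Of all 35116 RefSeq windows, 7.26% held an E-box by these letters, 2.18% a D-box, 6.52% a ROR element core and 1.85% a cyclic AMP response element. The E-box genes included *PER1* and *BHLHE40*, which rose, and *BHLHE41*, which fell. The D-box genes were *PER3*, which fell, and *PER2*, which was not called. The genes with a ROR element core were *BMAL1*, which rose, and *CRY2*, which was not called. The windows of *CRY1*, *NR1D1* and *DBP* held none of the letters searched, which says nothing of elements outside them or with other letters.

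*BMAL1* (ENSG00000133794, chr11:13276652-13387266) encodes the DNA-binding partner of CLOCK. Its level was 8.79, 8.82 and 8.83 normalized CPM (the share of a library's counts, scaled to a common library size) in untreated replicates 1 to 3 and 14.1, 13.3 and 13.9 CPM in Y-320 replicates 1 to 3. The untreated libraries lay almost on top of each other and all 3 treated libraries lay above them. The means were 8.82 ± 0.0243 and 13.8 ± 0.397 CPM (SD, n = 3 each). The log2 fold change was 0.64 (SE 0.0659; edgeR, Benjamini-Hochberg adjusted p = 1.73e-05).

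*PER1* (ENSG00000179094, chr17:8140472-8156506) encodes a repressor of the loop whose transcription also responds quickly to outside signals. The untreated libraries had 7.84, 8.78 and 7.38 CPM and the Y-320 libraries 16.8, 15.6 and 15.7 CPM. The lowest treated value was well above the highest untreated one. The means were 8.0 ± 0.709 and 16.0 ± 0.671 CPM (SD, n = 3 each). The log2 fold change was 1.01 (SE 0.0791; edgeR, Benjamini-Hochberg adjusted p = 2.42e-06).

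*PER2* (ENSG00000132326, chr2:238244044-238290102), which encodes a close relative of PER1, was not called. Untreated libraries had 7.38, 7.38 and 8.15 CPM and treated libraries 8.80, 7.14 and 8.71 CPM. The groups overlapped, because Y-320 replicate 2 held the lowest value of the 6. The log2 fold change was 0.10, with a 95% interval from -0.12 to 0.33 (edgeR, Benjamini-Hochberg adjusted p = 0.428).

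*PER3* (ENSG00000049246, chr1:7784291-7845177), the third member of the family, moved opposite to *PER1*. Its level was 42.9, 41.9 and 42.5 CPM without Y-320 and 20.7, 20.7 and 22.1 CPM with it. The groups were separated by a gap far wider than the range of either. The means were 42.4 ± 0.519 and 21.2 ± 0.819 CPM (SD, n = 3 each). The log2 fold change was -1.0 (SE 0.0425; edgeR, Benjamini-Hochberg adjusted p = 2.85e-08).

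The cryptochromes, which join the PER proteins in the repressing complex, did not pass the test. *CRY1* (ENSG00000008405, chr12:106991364-107093549) had 24.0, 22.3 and 21.9 CPM in untreated libraries and 23.3, 22.7 and 23.9 CPM in treated ones. These groups overlapped, with a log2 fold change of 0.034 and a 95% interval from -0.081 to 0.15 (edgeR, Benjamini-Hochberg adjusted p = 0.617). *CRY2* (ENSG00000121671, chr11:45847118-45883248) had 5.98, 7.05 and 7.43 CPM in untreated libraries and 7.48, 8.01 and 7.85 CPM in treated ones. Its treated libraries all lay above the untreated ones, but only just, since 7.48 CPM followed 7.43 CPM. The log2 fold change was 0.19, with a 95% interval from -0.035 to 0.42 (edgeR, Benjamini-Hochberg adjusted p = 0.144). Like *PER2*, it was among the shallowest members, down to 131.7 estimated counts in a library, and the interval of *CRY2* includes 0.

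*NR1D1* (ENSG00000126368, chr17:40092793-40100589) encodes the haem-binding nuclear receptor that represses *BMAL1*. Its level was 16.5, 19.8 and 17.3 CPM in untreated libraries and 30.9, 29.2 and 27.9 CPM in treated ones. All treated libraries were above all untreated ones, and *NR1D1* thus rose together with *BMAL1*. The means were 17.8 ± 1.71 and 29.3 ± 1.51 CPM (SD, n = 3 each), which is 0.72 on the log2 scale (SE 0.0694; edgeR, Benjamini-Hochberg adjusted p = 1.10e-05).

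*BHLHE40* and *BHLHE41* were the most abundant members and changed in opposite directions. *BHLHE40* (ENSG00000134107, chr3:4979437-4985323) encodes an E-box-binding repressor that also responds to hypoxia and other stresses. It had 154, 158 and 162 CPM in untreated libraries and 315, 316 and 321 CPM in treated ones. The replicates were tight in both groups, at 158 ± 3.98 and 318 ± 3.28 CPM (SD, n = 3 each). The log2 fold change was 1.01 (SE 0.0264; edgeR, Benjamini-Hochberg adjusted p = 1.57e-09). *BHLHE41* (ENSG00000123095, chr12:26120030-26125037), which encodes its close relative, had 185, 176 and 172 CPM in untreated libraries and 127, 110 and 114 CPM in treated ones. Every treated library was below every untreated one. The means were 177 ± 6.93 and 117 ± 8.77 CPM (SD, n = 3 each), and the change was -0.60 on the log2 scale (SE 0.0496; edgeR, Benjamini-Hochberg adjusted p = 3.60e-06).

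*DBP* (ENSG00000105516, chr19:48630030-48637379) encodes a D-box activator and is a direct output of the loop. The untreated libraries had 23.7, 27.3 and 27.8 CPM and the treated libraries 20.9, 22.4 and 21.8 CPM. The groups did not overlap, although untreated replicate 1 lay closer to the treated libraries than its fellows did. The means were 26.3 ± 2.22 and 21.7 ± 0.732 CPM (SD, n = 3 each), and the log2 fold change was -0.28 (SE 0.0648; edgeR, Benjamini-Hochberg adjusted p = 0.00465). *DBP* was the smallest of the 7 called changes.

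**Figure D1:**
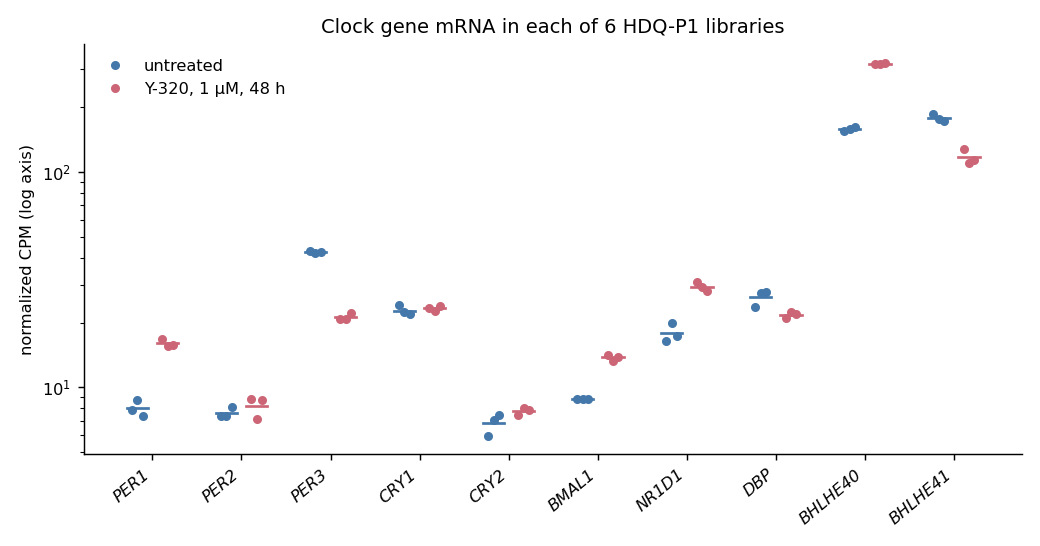
Normalized CPM (vertical axis, log scale) of the 10 clock genes in the 3 untreated and 3 Y-320 libraries. Points are libraries and horizontal lines are group means. *PER1*, *BMAL1*, *NR1D1* and *BHLHE40* are higher with Y-320, *PER3*, *DBP* and *BHLHE41* are lower, and the groups of *PER2* and *CRY1* overlap.

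The plot of normalized CPM by library shows that, for 8 of the 10 genes, the groups were fully separated, with all treated libraries above all untreated ones in 5 and below them in 3. Of all genes tested, 59.2% were separated in this way, 29.8% above and 29.4% below. For any such gene the exact permutation test over 3 against 3 libraries gives p = 0.1 (two-sided), the smallest it can give. A place in the ranking of all 16580 log2 fold changes says more about size. *BHLHE40* was 434th and *PER1* 437th from the largest rise, and *PER3* was 457th from the largest fall. *NR1D1* and *BMAL1* were 861st and 1070th from the top, and *BHLHE41* and *DBP* were 1166th and 3223rd from the bottom. Thus *BHLHE40*, *PER1* and *PER3* lay within the outer 2.62%, 2.64% and 2.76% of the respective ends.

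**Figure D2:**
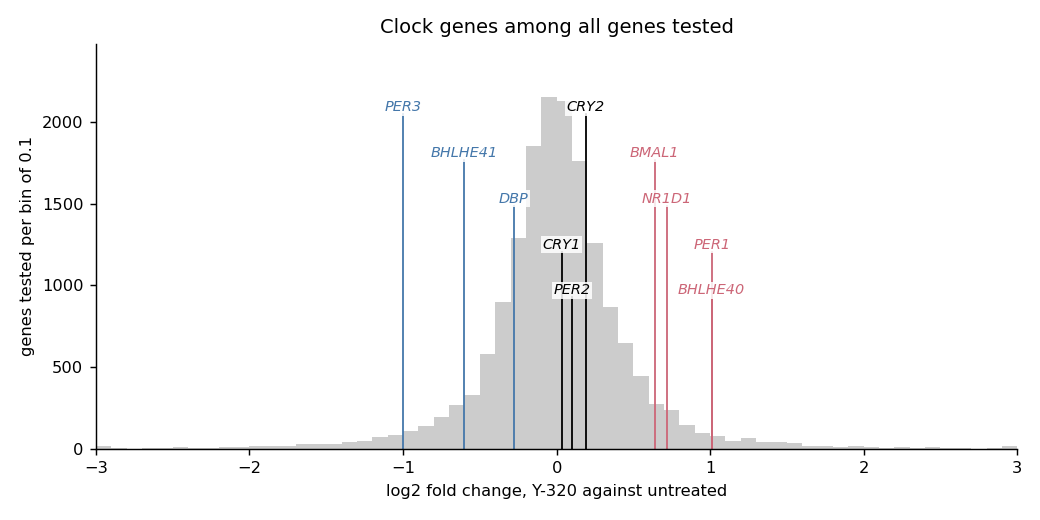
Histogram of the log2 fold change, Y-320 against untreated, of the 16580 genes tested in bins of 0.1 (values beyond the axis are counted in the end bins). Vertical lines are the clock genes, red for higher, blue for lower and black for not called. *PER3*, *PER1* and *BHLHE40* stand on the flanks, while 81.1% of genes lie within 0.5 of 0.

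The histogram of all genes places the 3 uncalled members near its centre and *DBP* on its slope. *BMAL1*, *NR1D1* and *BHLHE41* stand between that slope and the flanks.

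Compared per length, the abundances of the members spanned a wide range, and their order differed between the groups. On the scale of normalized CPM per kb of merged exons, the untreated order of levels began with *BHLHE41* at 46.1 ± 1.80 and *BHLHE40* at 44.9 ± 1.13 (SD, n = 3 each, as below). *NR1D1* came next at 6.78 ± 0.649, before *PER3* at 5.22 ± 0.0639, *CRY1* at 4.75 ± 0.227 and *DBP* at 4.05 ± 0.342. *BMAL1* at 1.27 ± 0.00351, *PER1* at 1.14 ± 0.101, *CRY2* at 1.10 ± 0.121 and *PER2* at 1.08 ± 0.0628 were lowest. The replicate ranges of 3 neighbouring pairs overlapped, *BHLHE41* with *BHLHE40*, *PER1* with *CRY2* and *CRY2* with *PER2*. With Y-320 the level of *BHLHE40* was 90.3 ± 0.933 CPM per kb and that of *BHLHE41* 30.4 ± 2.28, which separated them. *PER3*, at 2.60 ± 0.101, moved below *CRY1* (4.87 ± 0.127) and *DBP* (3.34 ± 0.113) and close to *PER1*, at 2.29 ± 0.0959. *NR1D1* was at 11.2 ± 0.576, *BMAL1* at 1.98 ± 0.0572, *CRY2* at 1.26 ± 0.0435 and *PER2* at 1.16 ± 0.132, and by merged exons only the ranges of this last pair of neighbours overlapped. The choice of length matters to this order, and which transcripts of each gene were expressed was not measured. With the longest annotated transcript of each gene in place of merged exons, the untreated level of *BHLHE40* was 50.1 and that of *BHLHE41* 47.4. By the same length untreated *NR1D1* was at 6.78 and *PER3* at 6.66, with overlapping replicate ranges. With Y-320 that length put *BMAL1* at 3.56, *PER1* at 3.43 and *PER3* at 3.33, the reverse of their order by merged exons, with overlapping replicate ranges.

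**Figure D3:**
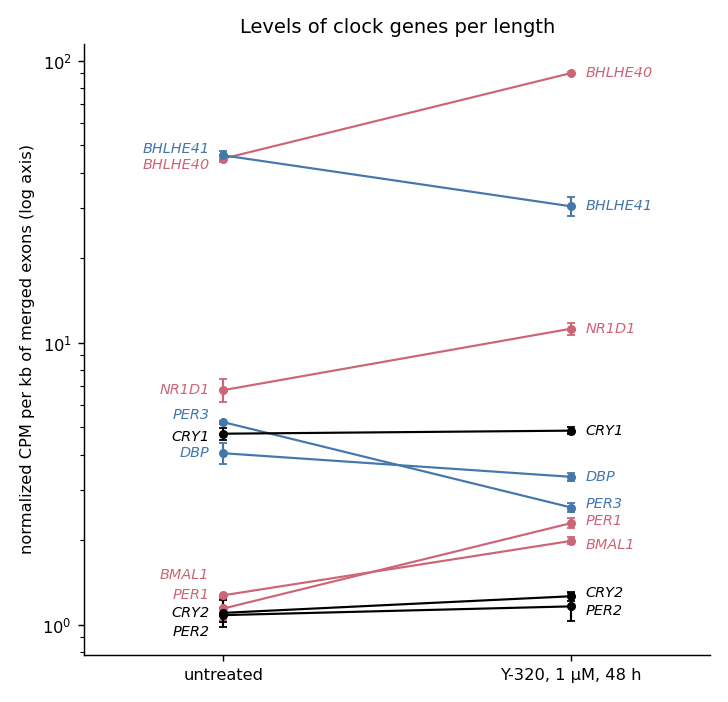
Mean level in normalized CPM per kb of merged exons (log axis) of the 10 clock genes in untreated and Y-320-treated cells; bars are the SD of 3 libraries. Red, blue and black mark genes called higher, lower and neither. *BHLHE40* and *BHLHE41* part from a shared untreated level, and *PER3* and *PER1* approach each other.

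The balance between related genes was compared as the log2 ratio of their levels within each library, with 0.5 CPM added to each. For *PER1* to *PER3* it was -2.38, -2.19 and -2.45 in untreated libraries and -0.29, -0.40 and -0.48 in treated ones. The mean difference was 1.95 with a pooled SD of 0.114, so *PER1* went from 0.198 times to 0.763 times the level of *PER3* by CPM, which is not corrected for length. For *BHLHE40* to *BHLHE41* the log2 ratio was -0.26, -0.15 and -0.083 in untreated libraries and 1.31, 1.52 and 1.49 in treated ones. The difference was 1.60 (pooled SD 0.103), and *BHLHE40* mRNA passed from 0.891 times to 2.71 times that of *BHLHE41* by CPM. The *PER1* to *PER2* log2 ratio was 0.87 higher, that of *PER2* to *PER3* 1.08 higher and that of *NR1D1* to its relative *NR1D2* 0.83 higher. *BMAL1* gained 0.58 on *CLOCK* and 0.53 on its relative *BMAL2* on the same scale. *DBP* lost ground to *NFIL3*, the repressor of the same D-boxes, with mean log2 ratios of 1.30 in untreated and -0.47 in treated libraries, a difference of -1.77. The log2 ratio of *CLOCK* to *NPAS2* was lower by 0.32 (difference -0.32). The ratios of *CRY1* to *CRY2* (difference -0.15) and of *DBP* to *TEF* (difference -0.15) overlapped between groups, with exact permutation p = 0.4 and 0.3. For the 9 of 11 ratios that did not overlap, the exact permutation test gave its smallest possible p = 0.1, or 0.122 after Benjamini-Hochberg adjustment over the 11 (two-sided, n = 3 per group), and so cannot reach 0.05. Of all single genes tested, 59.2% were also fully separated between the groups. The share among other gene pairs was not computed, and several genes enter more than 1 ratio.

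**Figure D4:**
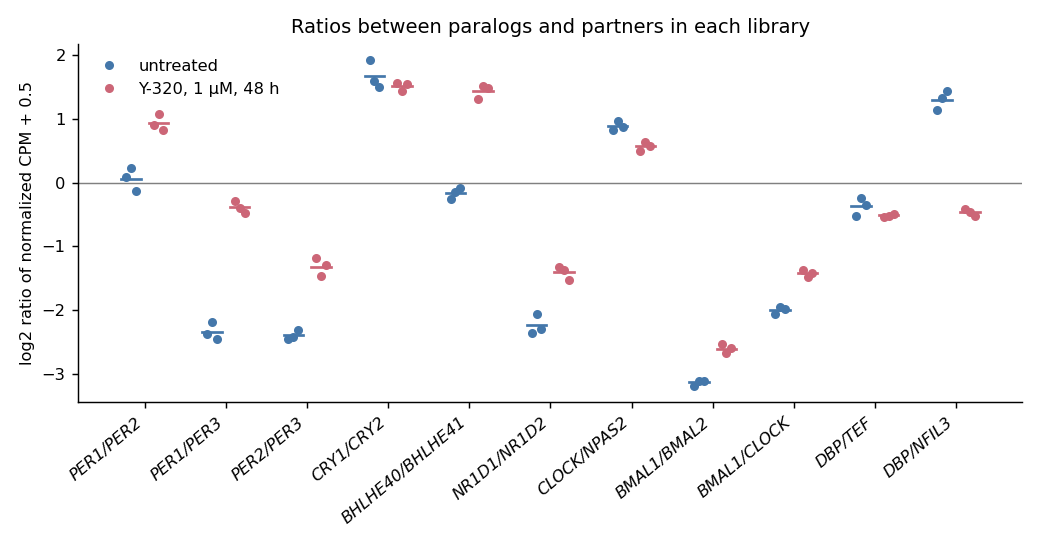
Log2 ratio of normalized CPM (0.5 added) between related clock genes in each of the 6 libraries; points are libraries and lines are group means. The ratio of *BHLHE40* to *BHLHE41* crosses 0 upward and that of *DBP* to *NFIL3* crosses it downward, while the ratios of *CRY1* to *CRY2* and of *DBP* to *TEF* overlap between groups.

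In the plot of ratios, a crossing of 0 means that the more abundant mRNA of the pair, by CPM, had changed. The largest shifts belong to *PER1* against *PER3*, *DBP* against *NFIL3* and *BHLHE40* against *BHLHE41*.

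Of 52 further genes listed by role, 49 could be tested, and 16 were higher and 14 lower. At 61.2% called, they lay nearer to the 51.5% of all genes, and their median absolute log2 fold change of 0.14 was below the 0.21 of all genes. A change of at least 0.5 was seen in 7 of them, or 14.3%, against 15.7% of all genes. The counts by role that follow stand beside 26.2% higher and 25.4% lower over all genes, and no role was tested against the rest.

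Among the activators, 1 of 3 rose. *NPAS2*, which can stand in for CLOCK, went from 19.8 to 25.4 CPM, a log2 fold change of 0.36 (SE 0.0654; edgeR, Benjamini-Hochberg adjusted p = 9.87e-04). *CLOCK* itself had means of 36.9 and 37.8 CPM, with a log2 fold change of 0.034 and a 95% interval from -0.057 to 0.13. *BMAL2* had 81.5 and 86.3 CPM, a log2 fold change of 0.082 (edgeR, Benjamini-Hochberg adjusted p = 0.0584). The activator side of the loop therefore had higher *BMAL1* and *NPAS2* mRNA, with *CLOCK* within a narrow interval around 0.

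Nuclear receptors act on ROR elements such as those shown for *BMAL1*. *RORA*, which encodes an activating receptor, rose from 3.77 to 7.50 CPM (log2 fold change 0.99, SE 0.114; edgeR, Benjamini-Hochberg adjusted p = 4.06e-05). *NR1D2*, the repressing relative of *NR1D1*, fell slightly from 85.7 to 78.5 CPM (log2 fold change -0.13; edgeR, Benjamini-Hochberg adjusted p = 0.0114). Without Y-320 replicate 2 the adjusted p of *NR1D2* was 0.0551. Thus *NR1D1* and *NR1D2* moved in opposite directions, and *BMAL1* rose beside higher mRNA of the activator *RORA* and of the repressor *NR1D1*. Per kb of merged exons *RORA* was far lower, at 0.221 CPM untreated and 0.44 treated, against 6.78 and 11.2 for *NR1D1*.

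The D-box regulators included the largest change of the pathway. *NFIL3* had 10.5, 10.5 and 9.92 CPM in untreated libraries and 28.0, 31 and 31.5 CPM in treated ones. The groups were far apart, and the log2 fold change was 1.55 (SE 0.0645; edgeR, Benjamini-Hochberg adjusted p = 2.53e-08). *TEF*, an activator related to DBP, had 34.1 and 31.3 CPM, with overlapping groups and a log2 fold change of -0.13 (edgeR, Benjamini-Hochberg adjusted p = 0.0494). The *TEF* call was lost in 10 of 15 other fits. *HLF*, a further activator of this kind, was too low to test, as were *RORB* and *FBXL21P* among the other groups.

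Of 4 other repressors and PER partners, 2 fell. *CIPC*, which encodes an inhibitor of CLOCK, went from 24.3 to 18.8 CPM (log2 fold change -0.37; edgeR, Benjamini-Hochberg adjusted p = 5.19e-04), and *TIMELESS*, with roles in DNA replication as well, from 117 to 106 CPM (-0.14, adjusted p = 0.00283). *CIART* and *TIPIN* were not called, with log2 fold changes of -0.073 and -0.20. *TIPIN* rested on single libraries, since it passed without Y-320 replicate 1 (log2 fold change -0.29; edgeR, Benjamini-Hochberg adjusted p = 0.0423) and was at -0.093 without Y-320 replicate 3.

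Genes that set the stability and activity of clock proteins moved little. Among 11 kinases, 3 rose and 3 fell, so that the 54.5% called were close to the 51.5% of all genes. The ends were *CSNK1A1* at a log2 fold change of 0.38 and *CSNK1E* at -0.22 (edgeR, Benjamini-Hochberg adjusted p = 1.83e-06 and 2.24e-04). *CSNK1D*, which like *CSNK1E* encodes a kinase of the PER proteins, had -0.074 (adjusted p = 0.0223) and lost its call in 6 of 15 other fits. *FBXW11*, which encodes part of a ubiquitin ligase of the PER proteins, fell by 0.12 on the log2 scale (edgeR, Benjamini-Hochberg adjusted p = 0.00307). Of 11 cofactor and chromatin genes, 2 rose and 4 fell, again 54.5% against 51.5% of all genes, with *SIRT1*, a deacetylase, at 0.20 and *SFPQ*, an RNA-binding PER partner, at -0.29 (edgeR, Benjamini-Hochberg adjusted p = 0.00358 and 3.38e-06).

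Of 9 genes listed as clock outputs, 6 rose and 2 fell, which is 88.9% called against 51.5% of all genes. Binding of clock proteins to these genes was not measured. *KLF11*, a zinc finger transcription factor, went from 11.8 to 21.8 CPM (log2 fold change 0.88; edgeR, Benjamini-Hochberg adjusted p = 2.02e-05). *RBM3*, a cold-inducible RNA-binding protein gene, fell by 0.20 on the log2 scale (adjusted p = 2.54e-04). Chosen after their values were seen, *KLF9* (6.57 to 10.9 CPM, log2 fold change 0.74), *NAMPT*, the NAD salvage enzyme gene (111 to 165 CPM, log2 fold change 0.57), and *NOCT*, which encodes the rhythmic protein nocturnin (log2 fold change 0.56), also rose (edgeR, Benjamini-Hochberg adjusted p = 3.18e-05, 1.67e-07 and 7.77e-04).

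**Figure D5:**
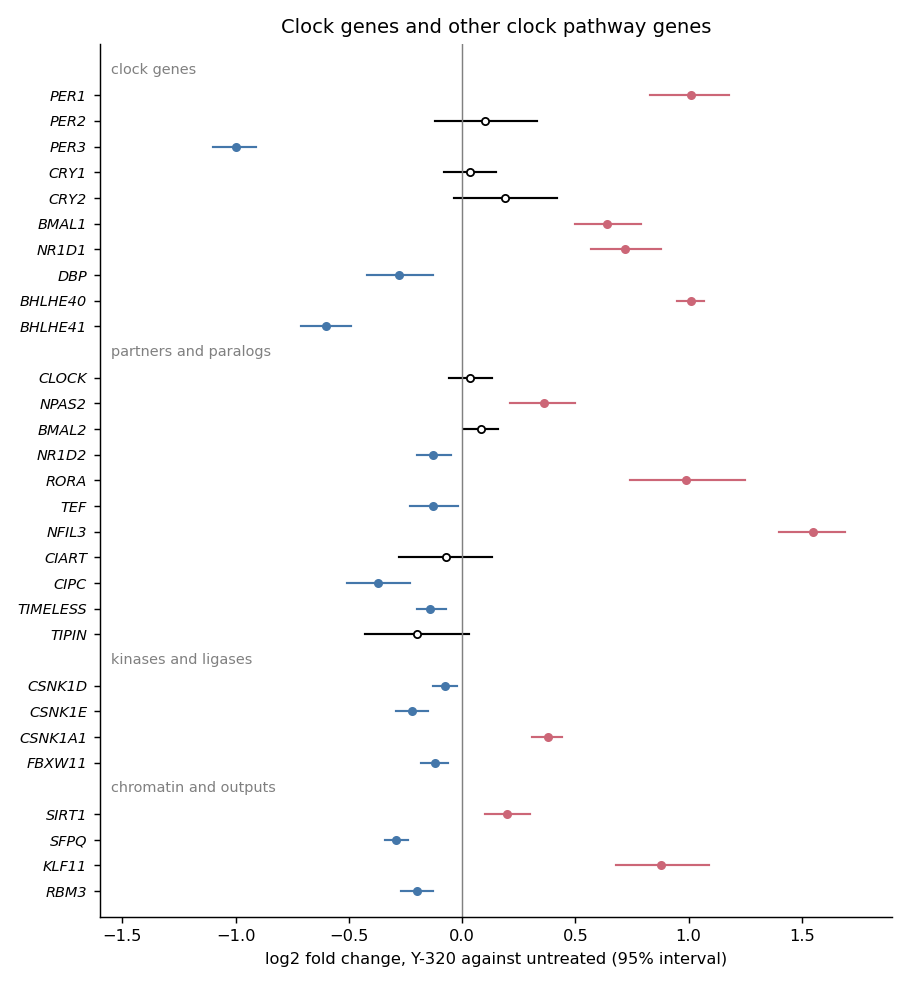
Log2 fold change, Y-320 against untreated, with its 95% interval for the 10 clock genes and the other clock pathway genes named under the naming rule, arranged by role. Red, blue and black mark genes called higher, lower and neither. *NFIL3* has the largest rise at 1.55 and *PER3* the largest fall at -1.0.

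The plot of changes by role shows the larger ones in transcription factors and *PER* genes, while the kinases, *FBXW11* and the cofactors lie within 0.5 of 0.

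Some members share exon sequence with a neighbouring gene, and the sources do not say whether the counting used strand, so reads from the shared stretch cannot be assigned with certainty. *NR1D1* shares 18.0% of its merged exon bases with *THRA* on the opposite strand, and *THRA* was not called (log2 fold change 0.014; edgeR, Benjamini-Hochberg adjusted p = 0.836). *PER3* shares 10.7% with *UTS2*, which had 0 counts in every library (a count of 0 allows up to 3), and *DBP* shares 10.2% with *SPHK2* (0.14, adjusted p = 0.117). *BHLHE41* shares 4.2% with *SSPN*, which itself fell by 0.71 on the log2 scale (adjusted p = 3.09e-08), and what part of the fall of *BHLHE41* that could carry was not tested. *BHLHE40* shares 12.8% with the antisense gene *BHLHE40-AS1*, not analysed here. By 31-base words found in another gene's transcripts, the sharing was at most 16.1%, in *NR1D1*.

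Libraries held 21045401 to 22740535 estimated counts and members 131.7 to 7196 counts in a library, with standard errors of the log2 fold change from 0.0264 to 0.103. Replicates differed beyond counting noise but by far less than the groups, with a chi-square per degree of freedom of 2.02 to 2.98 within groups and 40.2 to 42.1 between them. All 7 epithelial markers were detected, and their summed level was 8107.6 to 8478.0 CPM untreated and 4858.8 to 4925.9 CPM treated, with 6 of 7 lower and 1 higher. The 4 fibroblast-associated genes were all detected and all lower, with a sum of 245 to 268 CPM untreated and 125 to 138 CPM treated. The 3 endothelial markers summed to 17.5 to 18.9 CPM untreated and 13.8 to 17.9 CPM treated, with 1 higher (*PECAM1*) and 1 lower (*CDH5*). The 5 haematopoietic ones summed to 1.22 to 1.77 CPM untreated and 1.44 to 1.74 CPM treated, with *HBB* at 0. The part of these shifts in the clock gene changes was not tested. In bulk RNA, fewer cells with a transcript and less of it per cell cannot be told apart.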

How the data were processed

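RNA-seq of HDQ-P1 cells was compared between 3 untreated libraries and 3 treated with Y-320. The authors deposited estimated counts per gene, not normalized, made with kallisto 0.46.1 and GRCh38/hg38 according to the submitters' processing notes. The Ensembl release and strand setting are not given in the sources used here. The authors combined several pipelines, which were not repeated here.

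Estimated counts (48.5% not whole) were rounded, and 35390 of 40295 identifiers were matched to names. In R 4.3.3, edgeR 4.0.16 filtered genes (filterByExpr, minimum 10 counts, 15 in total), used TMM scaling and ran its quasi-likelihood test over the 6 libraries, with Benjamini-Hochberg adjustment over all 16580 genes and a threshold of 0.05. The fit was tried on simulated counts with few changed genes and a single dispersion for all genes. These data differ from that setting, so the trial does not measure the accuracy of the fit here. Normalized CPM uses TMM library sizes. DESeq2 1.42.0, limma-voom (limma 3.58.1), other filters and scalings, unrounded counts, a replicate block and leaving out each library were alternatives. Positions and lengths came from GENCODE 44 (hg38), and promoter windows from RefSeq. Tables and plots used Python 3.11.15, scipy 1.17.1 and matplotlib 3.10.9. No batch is given in the labels.

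The members and the lists were chosen with earlier results of these data known. The text names all 10 clock genes, by role the other activators, nuclear receptors, D-box regulators, repressors, *CSNK1D* and *CSNK1E*, the largest rise and fall past the threshold of each remaining group, genes with overlapping exons, and the 3 genes (mean at least 1 CPM) closest in pattern to the clock genes with the largest rise and fall. Some genes that this rule names are not reported here.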

Additional observations from a re-analysis of the deposited data

How the results depend on the processing

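All 10 clock genes kept their direction and their side of the threshold in each of 15 other fits, namely other filters, DESeq2, limma-voom, 3 other scalings, unrounded counts, a replicate block and each library left out. The largest spread over the leave-one-out fits among called members was that of *NR1D1* (log2 fold change 0.67 to 0.80), and *DBP* stayed between -0.35 and -0.23. Leaving out a library gave 4 higher and 3 lower clock genes each time, 13 to 16 higher and 12 to 14 lower among the other pathway genes, and 3917 to 4047 higher and 3748 to 3925 lower among all genes. Among all genes DESeq2 called 3405 higher and 3278 lower, so the background share depends on the test, and upper-quartile scaling gave 3917 higher and 4746 lower. That scaling gave 14 higher and 17 lower other pathway genes, in place of 16 and 14. Deviations from the group mean in libraries of the same replicate number correlated at -0.033, 0.025 and -0.002. Such values cannot show whether those libraries were handled together, which the labels do not say. With the number as a replicate block, 4 clock genes were higher and 3 lower, and other pathway genes were 16 higher and 13 lower. Of 22 other pathway genes named, 17 kept their call in all 15 fits, and the others were *TEF*, *CSNK1D*, *NR1D2*, *BMAL2* and *TIPIN*. *BMAL2* passed the threshold with library size alone and without untreated or Y-320 replicate 1. With a log2 fold change of at least 0.5 also required, 7 other pathway genes were higher and 0 lower, and 1400 of all genes were higher and 1207 lower, since fewer genes meet both criteria. That count of 0 was the same in edgeR, DESeq2 and limma-voom, and at an unadjusted p under 0.05. Dividing by the longest annotated transcript moved the untreated levels to 1.71 (*PER1*), 1.16 (*PER2*), 6.66 (*PER3*), 5.93 (*CRY1*), 1.62 (*CRY2*), 2.28 (*BMAL1*), 4.57 (*DBP*) and 50.1 (*BHLHE40*) normalized CPM per kb, by its construction. *PER2* and *CRY2*, with few counts, had the widest intervals of the members.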

Other observations

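Over the 6 libraries, the gene closest in pattern to *BHLHE40* among 15077 genes was *GOLGA2*, a Golgi matrix protein gene (126 to 251 CPM), with a root mean square difference of 0.014 between centred log2 levels. *TNIP1*, an inhibitor of NF-κB signalling, and *LONP1*, a mitochondrial protease gene, followed at 0.020 and 0.023. Closest to *PER3* were *DDX60L* (208 to 105 CPM) at 0.023, *HMGCS1* of cholesterol synthesis (234 to 115 CPM) at 0.031 and *TLE4*, a transcriptional corepressor gene (22.9 to 11.5 CPM), at 0.035. With 6 libraries in 2 groups, this measure mostly records a similar size of change between the groups.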
